A study of Mus musculus with 2148 samples.

Results

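Mucin genes encode large, heavily O-glycosylated proteins of epithelial surfaces, and 8 of them were followed here by gene symbol through single thymic epithelial cells (TECs): Muc2, Muc5ac, Muc5b, Muc6, Muc1, Muc4, Muc13 and Muc16. They are 8 of 48437 genes of the count table, all 8 had reads, and all 8 passed the filter on low counts before testing. The cells came from the thymus of C57BL/6 mice. They were sorted as CD45-negative, EpCAM-positive cells and, among these, as medullary cells without Ly51 (mTECs), split by much or little surface MHC class II into mTEChi and mTEClo, or as Ly51-positive cortical cells (cTECs). The 8 groups were adult wild-type (WT) mTEChi (620 cells, 31.3% of all, from males of 4, 5 and 6 weeks and females of 4 weeks), adult WT mTEClo (18.03% of all cells, males of 4, 5 and 8 weeks), adult WT cTECs (77 cells, males of 6 weeks), adult Aire-KO mTEChi (17.1% of all cells) and mTEClo (7.78%), both from males of 5 weeks, and newborn WT mTEChi (8.64%), mTEClo (6.26%) and cTECs (7.02%) at 1 day, sex not known. Aire-KO mice lack Aire in every tissue, and no newborn Aire-KO cell and no Aire-KO cTEC was profiled here.

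Each library was 1 cell, read by RamDA-seq, a method that primes total RNA along its full length. Cells are not replicates. Cells of a group with the same age and sex labels were therefore summed into a pool, which gave 4 pools of adult WT mTEChi, 3 of adult WT mTEClo and 1 of each other group. The labels do not number the mice, so a pool can hold several mice, and p-values measure the spread between pools. The 5-week male pool of WT mTEChi stood apart in size, with 12 cells beside 82 or more in each of the other 3. The total per cell ran from 203010 to 1823784 reads, and group medians from 532926.5 to 862537 reads. Levels are given in CPM, the reads of a gene in a pool scaled to a total of 1000000 reads over all genes. Aire, the gene removed in the knockout, stood at 1109.7 to 1844.6 CPM in the 4 WT mTEChi pools and at 26.1 CPM in Aire-KO mTEChi. Psmb11, a gene of cortical cells, stood at 732.4 CPM (adult) and 915.6 CPM (newborn) in cTECs, and at 283.7 CPM in newborn mTEClo. No plate held both adult WT and Aire-KO cells, so plate and genotype cannot be told apart. Of 26 plates, only 5 held more than 1 group, and these held the newborn groups. Plate therefore cannot be told apart from sort in adult cells, or from age, either.

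Muc2, Muc5ac, Muc5b and Muc6 are secreted and build the polymers of mucus gels. Muc2 is the main mucin of the intestine, Muc5ac that of the stomach surface and airway, Muc5b that of the airway and its glands, and Muc6 that of deeper gastric glands. Muc1, Muc4, Muc13 and Muc16 are anchored in the apical membrane: Muc1 is found on most simple epithelia, Muc13 in the gut, and Muc4 and Muc16 on wet stratified and ductal surfaces. In the thymus, Aire lets mTECs transcribe genes of other tissues, each in a small share of cells, and some mTECs take on the programmes of peripheral cell types such as keratinocytes, enterocytes, tuft cells or microfold cells.

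The 4 gel-forming genes are neighbours on chromosome 7 (GRCm38), where Muc6 at 141633456 to 141655319 points the other way from Muc2 at 141690340 to 141754693, Muc5ac at 141788972 to 141819231 and Muc5b at 141839070 to 141873084. Gaps of 35.02, 34.3 and 19.8 kb separate them, and together they span 239.6 kb. Muc1 lies on chromosome 3, Muc4 and Muc13 on chromosome 16 and Muc16 on chromosome 9. Each promoter given next runs from 250 bases before to 50 bases after the annotated start, on the coding strand, from RefSeq for GRCm38.p6. Muc2 and Muc6 are shown because they are gel-forming genes of that locus, Muc1 because most mTEChi had its reads, and Muc16 because Aire-KO mTEChi all but lacked it. The RefSeq table had no entry for Muc5ac and Muc5b. Capitals mark TATAAA or GGGCGG (written CCGCCC where it lies on the other strand).
Muc2, chr7:141690090-141690389, plus strand: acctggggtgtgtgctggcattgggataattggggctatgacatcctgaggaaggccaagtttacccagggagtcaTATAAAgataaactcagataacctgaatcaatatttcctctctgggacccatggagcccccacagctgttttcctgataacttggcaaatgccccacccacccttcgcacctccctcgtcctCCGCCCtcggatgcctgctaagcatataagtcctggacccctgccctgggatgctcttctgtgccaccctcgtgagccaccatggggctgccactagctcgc
Muc6, chr7:141655344-141655643, minus strand: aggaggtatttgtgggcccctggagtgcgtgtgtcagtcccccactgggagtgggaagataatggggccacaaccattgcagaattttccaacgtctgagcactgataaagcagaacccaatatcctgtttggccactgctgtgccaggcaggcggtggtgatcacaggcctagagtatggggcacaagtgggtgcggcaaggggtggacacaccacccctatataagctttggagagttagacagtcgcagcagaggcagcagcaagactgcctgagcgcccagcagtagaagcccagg
Muc1, chr3:89228806-89229105, plus strand: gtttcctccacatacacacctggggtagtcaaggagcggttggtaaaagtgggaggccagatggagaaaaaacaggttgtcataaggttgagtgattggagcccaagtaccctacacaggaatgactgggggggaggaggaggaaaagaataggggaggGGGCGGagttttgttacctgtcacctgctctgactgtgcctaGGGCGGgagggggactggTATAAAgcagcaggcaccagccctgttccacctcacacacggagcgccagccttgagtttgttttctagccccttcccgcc
Muc16, chr9:18674554-18674853, minus strand: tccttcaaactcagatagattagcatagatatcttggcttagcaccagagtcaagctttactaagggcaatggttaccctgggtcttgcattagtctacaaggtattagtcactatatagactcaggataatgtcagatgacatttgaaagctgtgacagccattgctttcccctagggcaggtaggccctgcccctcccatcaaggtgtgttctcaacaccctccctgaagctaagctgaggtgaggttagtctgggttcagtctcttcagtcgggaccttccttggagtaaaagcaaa
Muc1 had TATAAA 31 bases and GGGCGG 49 and 91 bases before its start. Muc2 had GGGCGG 52 bases before it and TATAAA farther upstream. The windows of Muc6 and Muc16 held neither, nor TGACTCA or GATAAG. Of 32841 promoters of the same length, searched on both strands, 13.6% held TATAAA, 35.7% GGGCGG, 5.20% TGACTCA and 7.44% GATAAG. The Muc2, Muc6 and Muc1 windows each held 6 CG pairs and the Muc16 window 1, beside a median of 7. These motifs were chosen with the expression values known, and a match is a run of letters, not a shown binding site.

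In adult WT mTEChi the mucins differed widely in how many cells carried them. Muc1 was nearly general: 98.7% of the 620 cells had a read and 90.3% had 5 or more. Muc13 had 5 reads or more in 32.1% of cells, Muc5ac in 26.1%, Muc4 in 24.7%, Muc6 in 15.3%, Muc2 in 9.84%, Muc5b in 7.10% and Muc16 in 3.55%. Per kilobase of annotated exon (RPKM), the order of mean levels over the 4 pools (± SD, n = 4) was Muc1 at 63.6 ± 13.9, Muc5ac at 17.3 ± 14.3, Muc13 at 16.2 ± 8.56, Muc2 at 7.98 ± 9.89, Muc4 at 4.42 ± 2.98, Muc6 at 2.68 ± 2.92, Muc5b at 1.96 ± 2.26 and Muc16 at 0.621 ± 0.419. Muc1 apart, neighbours in this order differed by less than the spread between pools. The intervals and ratios of reads given here cover counting error only, since reads of 1 transcript are not independent molecules.

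The gel-forming members were carried by few, very strong cells. Of 20 cells with 100 or more Muc2 reads, 14 were adult WT mTEChi, and the strongest held 4594 reads, 59.4% of the Muc2 reads of its pool. Muc2 stood at 159.3, 24.8, 0.375 and 42.98 CPM in the 4-week female, 4-week male, 5-week male and 6-week male pools. Muc5ac stood at 263.5, 118.5, 6.76 and 354.6 CPM in the same pools. The lowest value of both was that of the pool of 12 cells. Muc5b stood at 78.1, 17.2, 0 and 22.3 CPM, and Muc6 at 60.2, 33.2, 4.26 and 2.57 CPM. In the female pool 88.6% of Muc6 reads and 53.2% of Muc5b reads came from a single cell each.

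Among the membrane-anchored members, Muc1 varied least between the 4 pools. The SD was 0.22 of the mean for Muc1, 0.53 for Muc13 and 0.67 for both Muc4 and Muc16, beside 0.83 to 1.24 for the gel-forming members, and without the pool of 12 cells it was 0.13 of the mean for Muc4 and 0.69 for Muc16. Muc1 stood at 166.2, 167.2, 100.5 and 162.9 CPM in the 4 pools in the same order. Muc13 stood at 57.6, 81.2, 21.5 and 36.1 CPM. Muc4 stood at 63.98, 79.3, 0.626 and 64.1 CPM, the low value being that of the 12 cells, of which 1 had reads. Muc16 stood at 22.7, 28.2, 10.4 and 4.17 CPM, from 10 cells with 100 reads or more.

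**Figure D1:**
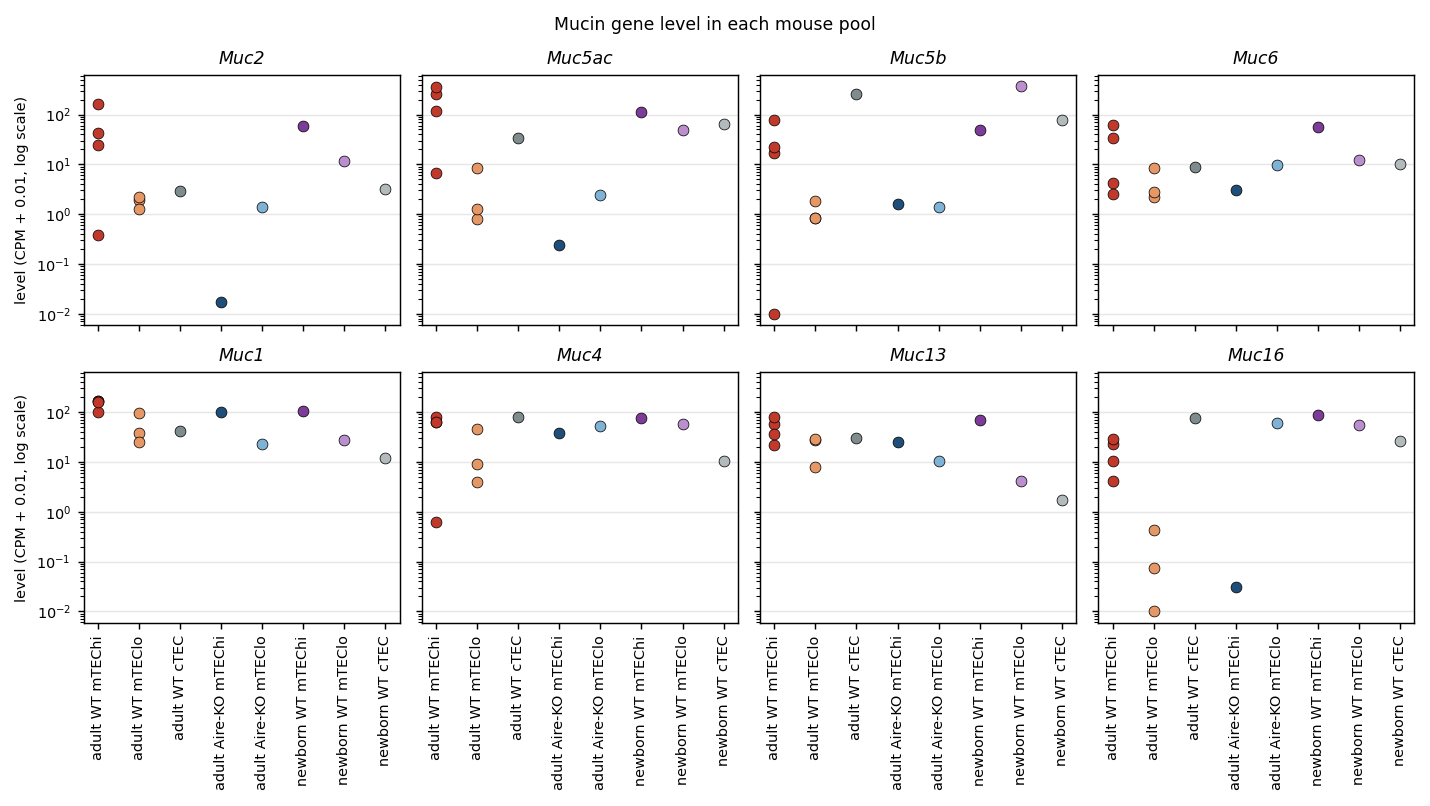
Level of each mucin gene (CPM, log axis) in each of the 13 pools, arranged by group, with 1 point per pool. Muc2, Muc5ac and Muc16 in Aire-KO mTEChi lie at 0.00683, 0.229 and 0.0205 CPM, below every WT mTEChi pool, whereas Muc1 spans 12.1 to 167.2 CPM over all pools.

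Outside mTEChi the same genes were present at other levels. In adult WT mTEClo, Muc2 stood at 1.92, 1.25 and 2.20 CPM (4, 5 and 8 weeks), Muc5ac at 0.788, 8.52 and 1.24 CPM and Muc5b at 0.810, 0.817 and 1.86 CPM. Muc16 stood at 0.0639, 0 and 0.418 CPM there. Muc1 stood at 94.7, 38.9 and 25.2 CPM and Muc13 at 27.6, 29.4 and 7.99 CPM. In adult cTECs, Muc5b stood at 255.998 CPM, but 88.1% of its reads came from 1 cell, and Muc5ac at 33.2 CPM with 89.4% from 1 cell. Newborn cTECs showed the same uneven pattern, with 93.9% of Muc5b reads, 90.95% of Muc5ac reads and 96.7% of Muc16 reads from 1 cell each. Muc6 was spread more evenly, with 5 reads or more in 29.9% of adult and 51.8% of newborn cTECs at 8.73 and 10.3 CPM, and no cTEC had 100 Muc6 reads.

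Low counts of these genes moved with the plate. For Muc5ac, the share of cells with 1 to 4 reads had a median of 29.7% over the 9 plates that held a cell with 1000 or more Muc5ac reads, and of 2.54% over the 10 plates with no cell of 100 reads. For Muc2 the medians were 22.1% (5 plates) and 2.74% (15 plates), for Muc5b 30.9% (9 plates) and 3.94% (14 plates) and for Muc16 18.5% (8 plates) and 3.45% (13 plates). For Muc4 they were 23.3% (10 plates) and 3.63% (2 plates), and for Muc6 23.2% (7 plates) and 12.5% (19 plates). The medians of Muc13 lay closer, at 8.64% (5 plates) and 4.87% (2 plates), but the highest of those 5 plates was at 45.98%. The part that reads from neighbouring wells play in low counts was not tested, and shares are therefore given at 5 reads or more. Those shares differed between plates too. For Muc5b they were 42.5% and 29.9% on the plates with cells of 16232 and 14679 reads. On a plate whose strongest cell had 1996 reads the share was 5.63%, and on one with 16 reads 8.33%. Plates also differed in the groups they held, and whether the cut of 5 reads removes the link with the plate was not tested.

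Aire-KO mTEChi all but lacked Muc2, Muc16 and Muc5ac. Muc2 had 2 reads over all Aire-KO cells and 19430 reads in 620 WT cells, a WT to Aire-KO ratio of CPM of 5958 (95% counting interval 1649.1 to 49200). No Aire-KO cell had 5 Muc2 reads, beside 9.84% in WT. At 3 cells, the limit used here for a count of 0, the share could be up to 0.888%, and the exact 95% interval reached 1.09%. Muc16 had 6 reads in Aire-KO and 11398 in WT, a ratio of 1165.01 (535.1 to 3175), and again no Aire-KO cell reached 5 reads. Muc5ac had 67 reads in Aire-KO and 79168 in WT, a ratio of 724.6 (570.5 to 935.1), with 5 reads or more in 1.18% and 26.1% of cells.

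The other 5 members still had reads in Aire-KO mTEChi, at summed levels below those of WT. Muc5b stood at 1.59 CPM against 23.8 CPM summed over the WT cells, and Muc6 at 3.08 against 31.01 CPM. For these genes the strong cells were missing: no Aire-KO cell had 100 reads of either, where 7 WT cells had that many of Muc5b and 8 of Muc6. The shares of cells with 5 reads or more were closer, at 5.62% and 7.10% for Muc5b and at 11.5% and 15.3% for Muc6. Muc13 stood at 24.6 against 71.2 CPM, with 5 reads or more in 9.76% and 32.1% of cells. Muc4 stood at 38.1 against 74.2 CPM (14.2% and 24.7% of cells) and Muc1 at 99.1 against 165.3 CPM (82.8% and 90.3% of cells). The Aire-KO values of Muc5b, Muc6, Muc4, Muc13 and Muc1 lay above the lowest WT pool except for Muc1, whose Aire-KO level was just under the 100.5 CPM of the 12-cell pool. For Muc5b, Muc4 and Muc13 that lowest pool was also the one of 12 cells, and the other 3 WT pools, at 17.2, 63.98 and 36.1 CPM or more, lay above the Aire-KO value.

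A gene counted as lost where Aire-KO mTEChi held 3 reads or fewer in all and every WT pool of 50 cells or more held over 3. Muc2 met this rule, as did 2.26% of 39971 genes tested. A wider rule, chosen after the values were seen, asked that every WT pool lie above the Aire-KO pool with a mean at least 4-fold higher, and Muc2, Muc5ac and Muc16 met it (5.79% of all genes). With plates as units, every one of 9 WT plates lay above every one of 4 Aire-KO plates for Muc2, Muc5ac, Muc16 and Muc1 (2.99% of 37011 genes). For Muc1 the ranges were 134.97 to 210.9 CPM over WT plates and 92.5 to 103.8 CPM over Aire-KO plates. For Muc2 they were 0.473 to 159.3 and 0 to 0.0188 CPM.

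By edgeR's quasi-likelihood test on pools, with Benjamini-Hochberg adjustment, none of the 8 members and no other gene (0% of 39971) was called lower in Aire-KO mTEChi. Calls asked for 2-fold or more at an adjusted p below 0.05, with 1 Aire-KO pool assumed to vary like the rest. Muc2 (log2 fold change -12.71, SE 3.63), Muc16 (-9.45, SE 2.56) and Muc5ac (-9.54, SE 2.91) passed at an unadjusted p under 0.05, as did 3.19% of all genes on the lower side, and the adjusted p of each was 0.925. The other 5 had log2 fold changes of -4.11 (SE 2.35) for Muc5b, -2.92 (SE 1.9) for Muc6, -0.88 (SE 0.82) for Muc13, -0.47 (SE 0.61) for Muc1 and -0.33 (SE 1.75) for Muc4. DESeq2 on the same pools called Muc2, Muc5ac and Muc16 lower (1.79% of all genes). With plates as units edgeR called Muc2 (adjusted p = 0.000777), Muc5ac (0.00052), Muc16 (0.017) and Muc6 (0.044) lower, beside 4.44% of all genes, but plates of 1 genotype share mice. An exact permutation test of 4 pools against 1 could not go below p = 0.2.

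**Figure D2:**
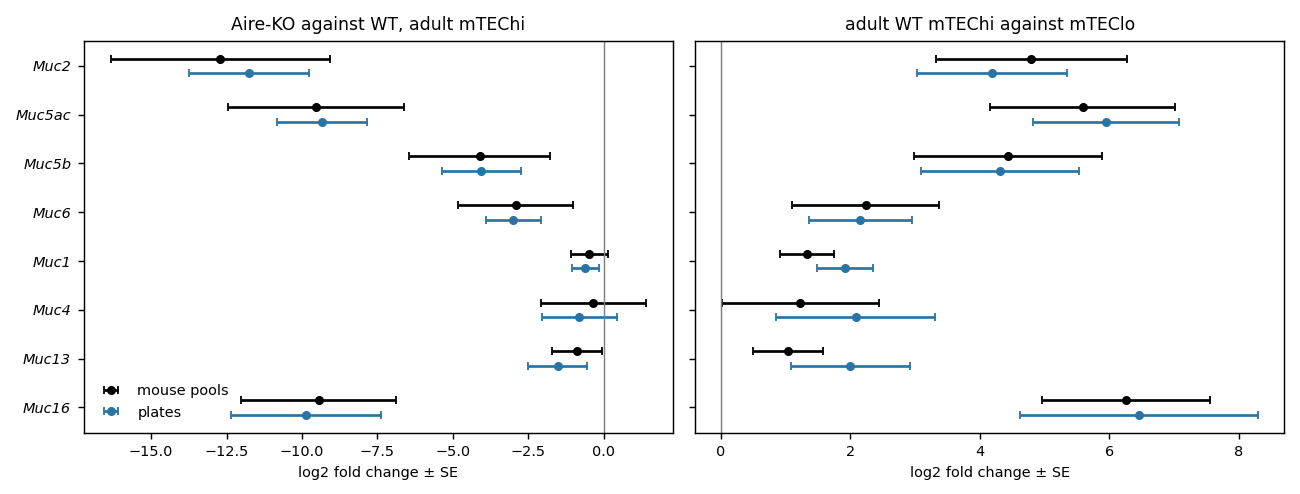
Log2 fold change (edgeR) of each mucin gene, with a standard error derived from the F statistic of its test. Shown are Aire-KO against WT mTEChi and adult WT mTEChi against mTEClo, with pools and with plates as units. In Aire-KO against WT mTEChi the values over pools run from -12.71 for Muc2 to -0.33 for Muc4, and in adult WT mTEChi against mTEClo from 1.03 for Muc13 to 6.25 for Muc16.

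In mTEClo the Aire-KO levels of Muc2, Muc5ac and Muc5b were no lower than the lowest WT pool and no higher than the highest. Muc2 stood at 1.37 CPM in Aire-KO and at 1.25 to 2.20 CPM in the 3 WT pools, Muc5ac at 2.42 CPM and at 0.788 to 8.52 CPM, and Muc5b at 1.40 CPM and at 0.810 to 1.86 CPM. Muc6 stood at 9.48 CPM against 2.15 to 8.51 CPM. Muc1 was at 22.4 CPM, below the 25.2 to 94.7 CPM of WT. Muc13 was at 10.6 CPM, within the 7.99 to 29.4 CPM of WT, but 96.4% of its reads came from 1 cell, without which it stood at 0.382 CPM, and 1.95% of cells had 5 reads or more, beside 3.69% to 25.7% in the WT pools. Muc4 and Muc16 stood at 53.4 and 59.5 CPM in Aire-KO mTEClo, and 99.5% and 99.8% of these reads came from the same cell, which held 4879 Muc4 and 5450 Muc16 reads and none of Aire. Without the strongest cell Muc16 stood at 0.131 CPM. No member was called in this comparison by edgeR on pools (0 of 39971 genes, with 1 member, Muc16, at an unadjusted p under 0.05, adjusted p = 0.898), and DESeq2 called Muc16 higher (0.218% of all genes). The difference of the Aire-KO effect between the sorts was called for no member by edgeR on pools (Muc2, Muc5ac and Muc16 at an unadjusted p under 0.05, adjusted p = 1 each), and for Muc2, Muc5ac and Muc16 by DESeq2 (0.3% of all genes) and over plates (0.203%).

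Adult WT mTEChi had more of all 8 members than adult WT mTEClo in the fitted values, and 2 members were called. Muc16 was higher by 6.25 on the log2 scale (SE 1.30, adjusted p = 0.0211 by edgeR) and Muc5ac by 5.59 (SE 1.43, adjusted p = 0.04), where 7.54% of all genes were called higher. Muc2 (4.80, SE 1.47, adjusted p = 0.0641), Muc1 (1.34, SE 0.42, adjusted p = 0.067) and Muc5b (4.43, SE 1.45, adjusted p = 0.0756) missed the threshold. Muc6 had 2.24 (SE 1.13), Muc4 1.23 (SE 1.21) and Muc13 1.03 (SE 0.54). The median of all genes was 0.30 under TMM scaling and 0.40 under DESeq2's size factors, so that Muc13 stood 0.73 and Muc16 5.96 above the median. Every mTEChi pool lay above every mTEClo pool for Muc1 and Muc16 (16.1% of all genes). Muc5ac did not, because the 12-cell pool at 6.76 CPM was below the 8.52 CPM of 5-week mTEClo. Without that pool 4 members were called (Muc2, Muc5ac, Muc5b and Muc16), beside 10.3% of all genes. Leaving out any other pool ended the call of Muc5ac, as did adding age and sex to the model (4.5% of all genes called), and leaving out the 4-week mTEClo pool ended that of Muc16 too, with Muc1 called in their place (2.01, SE 0.31, adjusted p = 0.0176), beside 3.45% of all genes. DESeq2 called 5 members (17.9% of all genes), adding Muc2, Muc5b and Muc1, and plates as units 6 (25.8%), adding Muc6 as well. The smallest p of an exact permutation test of 4 pools against 3 was 0.0571.

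Newborn mTEChi carried the members at levels inside or near the adult range. Muc2 stood at 57.4 CPM, Muc5ac at 111.97, Muc5b at 48.3, Muc6 at 56.6, Muc1 at 104.2, Muc4 at 75.98 and Muc13 at 68.3 CPM, each between the lowest and the highest adult pool. Muc16 was at 86.1 CPM, above the adult 4.17 to 28.2 CPM, from 6 cells with 5 reads or more. No member was called against adult mTEChi by edgeR on pools, by DESeq2 or over plates, and no member had an unadjusted p under 0.05. Among all 39971 genes, edgeR on pools called none in this comparison, and DESeq2 called 12 higher and 23 lower. With so few calls among all genes, the lack of a call does not show that newborn and adult levels were alike.

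Muc5b was far higher in the newborn mTEClo pool than in any adult mTEClo pool, a difference that the test over pools did not call. It stood at 374.8 CPM in newborn mTEClo and at 0.810 to 1.86 CPM in the 3 adult mTEClo pools, with 5 reads or more in 36.3% of cells and 13 cells of 100 reads or more. The strongest cell gave 54.1% of the reads. Over the 5 plates of newborn mTEClo the share of cells with 5 or more Muc5b reads ran from 10% to 79.3%. The Muc5b level ran from 5.53 to 1089.4 CPM over the same plates. Muc16 stood at 54.7 CPM against at most 0.418 CPM, with 5 reads or more in 4.03% of cells. The strongest Muc16 cell gave 63.8% of its reads, and without that cell Muc16 stood at 19.8 CPM. Muc5ac stood at 47.8 against at most 8.52 CPM. Muc13 went the other way, at 4.12 CPM against 7.99 to 29.4 CPM. No gene was called higher by edgeR on pools (0% of 39971), where the log2 fold changes were 8.19 for Muc5b (SE 1.86, adjusted p = 0.201), 8.10 for Muc16 (SE 1.51, adjusted p = 0.139), 3.73 for Muc5ac (SE 1.54, adjusted p = 0.477) and -2.43 for Muc13 (SE 0.93, adjusted p = 0.45). These 4 passed at an unadjusted p under 0.05, as did 2246 of 39971 genes on the higher side and 4.32% on the lower side. DESeq2 called Muc5b and Muc16 higher (2.06% of all genes), and edgeR over plates called Muc5b, Muc16 and Muc5ac higher, where 7.08% of all genes were. Without the 8-week mTEClo pool Muc16 was called over pools (0.635% of all genes). Psmb11 was also highest there among the medullary sorts, at 283.7 CPM with 5 reads or more in 85.5% of cells, beside 20.3 CPM in newborn mTEChi (49.7% of cells) and 0.667 to 71.6 CPM in the adult medullary pools. The part of cortical-type cells in these values was not tested.

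To see which cells carried the members, all cells were clustered on 6000 variable genes without the 8 mucins, and the 18 clusters were named from fixed marker lists with no mucin in them. Values by cluster are descriptions with no test. The keratinocyte-like cluster (70 cells, 11 of 11 markers higher, among them Krt1, Krt10, Ivl and Lor of cornifying skin) held 71.6% of all Muc5b reads, 55.7% of Muc16 reads and 26.4% of Muc4 reads, but 6.03% or less of those of each other member. Its levels were 1145.5 CPM for Muc5b, 463.8 CPM for Muc16 and 433.4 CPM for Muc4. By cells the picture was narrower: 25.7% of these 70 cells had 5 reads or more of Muc5b, 12.9% of Muc16 and 28.6% of Muc4. Cells of this cluster came from all 8 groups, with 15 from adult WT mTEChi and 14 from Aire-KO mTEChi, and in those 15 and 14 cells Muc5b stood at 2.03 and 8.21 CPM. The strong ones were elsewhere. The name of the cluster did not extend to each cell in it. Its cells had a median of 5 of the 11 keratinocyte markers at 5 reads or more, beside 1.5 in all other cells. The 5 cells with most Muc5b reads, 3 newborn mTEClo, 1 adult cTEC and 1 newborn cTEC, all lay in this cluster but had only 1 to 5 of the keratinocyte markers (median 2), and 5 to 7 of 13 markers of secretory cells, with 3620 to 16232 Muc5b reads and Aire at 0 to 21.6 CPM.

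Most reads of Muc2, Muc6 and Muc5ac lay in other clusters. An unnamed cluster with Aire at 1394.8 CPM, called the Aire-high cluster here (17.7% of all cells, of which 71.8% were adult WT mTEChi and 4 cells Aire-KO mTEChi), held 71.7% of Muc2 reads, 59.3% of Muc6 reads, 57.8% of Muc5ac reads and 40.8% of Muc16 reads. A further unnamed cluster (170 cells) had a higher Aire level than the one called Aire-high, at 1850.7 CPM, and held 18.96% of Muc5ac reads. The keratinocyte-like cluster held 0.953% of Muc2 reads and 4.20% of Muc5ac reads. The thymocyte-like cluster of 16 cells had Muc5ac at 624.2 CPM, 97.9% of it from 1 cell with 6896 Muc5ac reads and Aire at 2204 CPM. The same cell gave 60.3% of the Muc2 reads of its pool, that of 6-week male WT mTEChi.

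Most Muc13 reads lay in enterocyte or hepatocyte-like cells. That cluster (8.89% of all cells, 6 of 8 markers higher, among them Hnf4a, Hnf4g and Vil1) held 56.8% of Muc13 reads, 35.7% of Muc4 reads and 25.3% of Muc1 reads. For Muc4 the level there was 190.5 CPM, lower than in the keratinocyte-like cluster. For Muc1 more of the cells with 100 or more reads lay in the Aire-high cluster (94) than here (83). Muc13 stood at 228.7 CPM there, and at 338.2 CPM in the 27 microfold-like cells, which also had 7 of 8 enterocyte or hepatocyte markers higher. Within the enterocyte or hepatocyte-like cluster, where 74.4% of cells were adult WT mTEChi and 30 cells Aire-KO mTEChi, Muc13 stood at 221.7 and 209.2 CPM, with 5 reads or more in 50.4% and 53.3% of cells. Muc4 stood at 198.2 and 144.2 CPM and Muc1 at 294.1 and 102.4 CPM, the latter near the 99.1 CPM of all Aire-KO mTEChi. Muc5ac stood at 58.5 and 0.867 CPM and Muc2 at 22.3 and 0 CPM in the same cells. There was 1 Aire-KO pool, so these differences have no test.

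**Figure D3:**
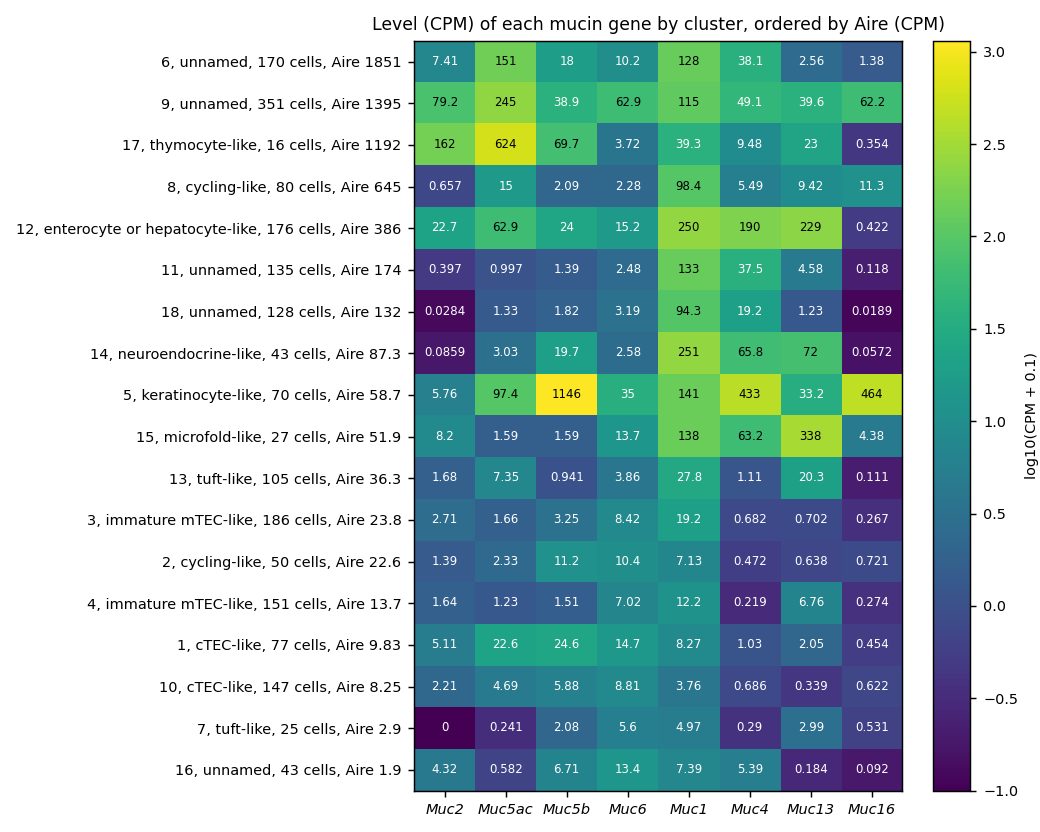
Level (CPM, numbers in the cells) of each mucin gene in each of the 18 clusters, ordered by the Aire level given beside the name. Muc5b stands highest in keratinocyte-like cells (1145.5 CPM) and Muc13 in microfold-like cells (338.2 CPM), while Muc2 stands at 79.2 CPM in the Aire-high cluster and higher only in the 16 thymocyte-like cells. The Muc2 level of those 16 is carried in large part by 1 cell, the one with 6896 Muc5ac reads.

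No cluster met the rule for a secretory name (goblet or airway, 13 markers such as Spdef, Agr2, Fcgbp, Bpifb1 and Ltf), so secretory cells were sought cell by cell. With 5 or more of the 13 markers at 5 reads or more, 59 cells qualified, 87 more had 4 markers and 26 had 6 or more. They held 76.97% of Muc5b reads, 45.1% of Muc16 reads and 20.2% of Muc4 reads, against 3.86% of Muc2 reads and 9.68% of Muc6 reads. Of the 59 cells, 26 lay in the Aire-high cluster, 14 in the keratinocyte-like cluster and 7 in the enterocyte or hepatocyte-like cluster. The 14 cells of the keratinocyte-like cluster that qualified had Muc5b at 4677 CPM, Muc16 at 1353.7 CPM and Muc4 at 1078.9 CPM, and the 56 with fewer than 5, of which 12 had 4, had Muc5b at 51.3 CPM and Muc4 at 233.4 CPM. Muc16 had 14284 reads in the 14 cells and 6402 reads in the 56. Fcgbp, 1 of the 13 markers, had 5 reads or more in all 70 cells, and in all 45 cells outside this cluster that qualified. Its median was 1366.5 reads in the 14 cells and 2623.5 in the 56, so it did not separate them. The cut of 5 markers was chosen after cuts of 2 and 3 had been seen, and the shares moved with it. From 2 or more to 6 or more markers the share of Muc5b reads went from 92.05% to 60.5%, that of Muc16 reads from 89.4% to 12.2% and that of Muc2 reads from 70.97% to 2.67%. At 3 or more markers they were 85.98%, 77.9% and 30.2%.

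Cells with strong Muc16 lay mostly in 2 clusters. Of 22 cells with 100 or more Muc16 reads, 8 lay in the keratinocyte-like cluster and 12 in the Aire-high cluster. The 8 had 1 to 5 of 11 keratinocyte markers (median 2.5) and 3 to 6 of 13 secretory markers. All 8 also had 100 or more Muc4 reads and 5 or more Muc5b reads, with a median Aire level of 0 CPM. Of the other 12, 1 had 100 Muc4 reads and none had 5 Muc5b reads, and all 12 had Aire, at a median of 1776.5 CPM. The Aire-KO mTEClo cell with 5450 Muc16 reads was among the 8. The threshold of 100 reads was chosen after the values were seen.

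**Figure D4:**
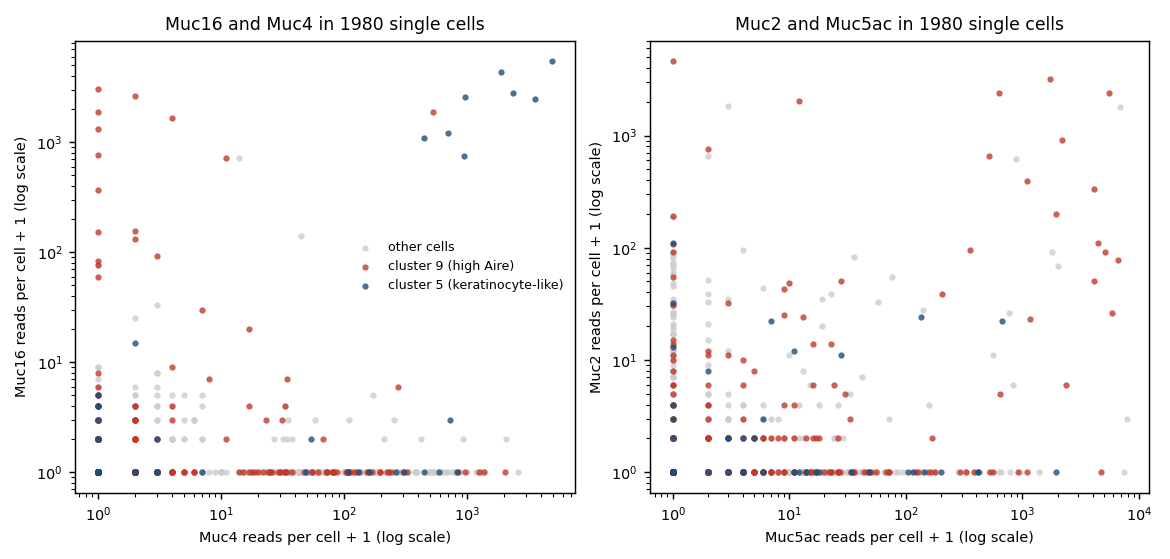
Reads per cell of Muc16 against Muc4 and of Muc2 against Muc5ac, 1 point per cell on log axes of reads plus 1. All 8 cells of the keratinocyte-like cluster with 100 or more Muc16 reads have 100 or more Muc4 reads as well, while 33 adult WT mTEChi cells have 5 or more reads of both Muc2 and Muc5ac.

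Some pairs of gel-forming genes were read in the same adult WT mTEChi cell more often than their overall shares. The pair of Muc6 and Muc5ac was not in adult cells, but was in newborn mTEChi. Of 61 cells with 5 or more Muc2 reads, 33 (54.1%) had 5 or more of Muc5ac, beside 26.1% of all 620 cells, and these were 20.4% of the cells with 5 or more Muc5ac reads. Of 44 Muc5b cells, 21 (47.7%) had Muc5ac, and these were 12.96% of Muc5ac cells. Muc6, the neighbour of Muc2 on the other side, was read in 18 Muc2 cells (29.5%, beside 15.3% of all cells). Of 95 Muc6 cells, 25 (26.3%) had Muc5ac, about the 26.1% of all cells, and 11 (11.6%) had Muc5b, beside 7.10%. A 4-week female cell held 2394 Muc2, 5472 Muc5ac and 2591 Muc6 reads, and a newborn mTEChi cell with 3218 Muc2 reads was among the 5 strongest for Muc6 too. The strongest Muc2 cell, with 4594 Muc2 reads, also had Muc6 reads but none of Muc5ac. At least 1 gel-forming member was read 5 times in 43.2% of WT and 17.8% of Aire-KO mTEChi cells, and at least 2 were in 11.8% and 0.592%. Cells share depth and plate, so these counts are descriptions.

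The Aire level of the cells that carried each member also differed. In adult WT mTEChi, cells with 100 or more Muc13 reads had a median Aire level of 119.1 CPM (69 cells), and cells with none had 1497.4 CPM (40.97% of the 620 cells). For Muc16 the order was opposite, 2010 CPM in 10 strong cells and 953.8 CPM in cells without reads (84.5%). Muc2 showed little difference, with 1181.2 CPM in 14 strong cells and 1060.8 CPM in cells without reads (74.03%). Aire entered the clustering and the members did not.

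The protein-coding genes most alike in pattern were named by Pearson's r across all cells, at 0.3 or more, on a log scale of reads per 10000, among 17308 genes. Muc13 was closest to Lgals4 (r = 0.58), Neurl3 (0.58) and Slc10a5 (0.57), Lgals4 encoding an intestinal galectin, and kept r of 0.54 to 0.64 with them in adult WT mTEChi alone. Muc1 was closest to Cyba (0.56), Ncf4 (0.50) and Srgn (0.50), Cyba and Ncf4 encoding subunits of the phagocyte NADPH oxidase. Muc5b was closest to Agr2 (0.48), a disulfide isomerase of mucus-making cells, Medag (0.46) and Kcne3 (0.39), and Muc16 to Upk1b (0.43), a uroplakin of the bladder lining, Vtcn1 (0.39) and Ctxn3 (0.38). In adult WT mTEChi alone r for these Muc5b and Muc16 partners lay between -0.01 and 0.06. Muc4 was closest to Muc20 (0.47), Vtcn1 (0.38) and Pigr (0.36). Muc4 and Muc20 have overlapping exons on opposite strands, as have Muc13 and the antisense gene Gm15657, and reads were counted without strand, so the counts of these genes are uncertain where they overlap. Muc2 reached 0.32 with Slc36a2 and Muc6 0.33 with Serpina1e, and no gene reached 0.3 with Muc5ac. Cells share library depth and plate, and these values carry no p.

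Genes that act with the mucins were followed in 3 lists. Of 13 other mucins and mucin-like genes tested in Aire-KO against WT mTEChi, none was called by edgeR on pools (median log2 fold change -0.44, all genes -0.16). The same held for 21 goblet-cell regulators and packaging genes (median -2.13) and for 23 rows of 22 genes of mucin-type O-glycosylation (median 0.24). Over plates 2 of each list were lower, where 4.44% of all genes were, for the first Mucl1 (-4.02, adjusted p = 0.0028) and Mucl2 (-6.56, adjusted p = 0.00833). For the second these were Creb3l1 (-2.86, adjusted p = 0.0405), a transcription factor of secretory cells, and Zg16 (-4.62, adjusted p = 0.00922), a lectin of intestinal mucus. For the third they were Chst4 (-9.23, adjusted p = 0.0231), a sulfotransferase, and Gcnt3 (-7.21, adjusted p = 0.0218), which branches core glycans. Against mTEClo, adult mTEChi had 2 of 13 other mucins higher by edgeR on pools, where 7.54% of all genes were called higher and 4.13% lower. They were Muc19 (7.86, adjusted p = 0.0371) and Mucl1 (4.91, adjusted p = 0.0143). Of the goblet list none was higher and 2 were lower, Clca2 (-3.06, adjusted p = 0.0495) and the chloride cotransporter gene Slc12a2 (-1.63, adjusted p = 0.013). Of the glycosylation rows 4 were higher, Chst4 (7.89), St6galnac1 (4.24), Gcnt4 (1.49) and Galnt10 (1.29), and 3 were lower, C1galt1 (-1.15) and both rows of St6galnac2 (-1.42 and -2.08). The medians were 0.95, 0.26 and 0.43 for the 3 lists and 0.30 for all genes.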

How the data were processed

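Whole-number read counts per Ensembl gene and cell were deposited by the authors, who trimmed reads with fastp 0.20.0, mapped them with STAR 2.7.3a (mm10), dropped mapping qualities under 5 (SAMtools 1.9) and duplicates (Picard 2.21.1), counted with HTSeq 0.11.2 without strand (how reads over 2 genes were assigned is not given in the sources used here) and kept cells with over 200000 reads on over 8000 genes. The authors' scaled table was not used. The 2148 samples are 1980 cells, 168 of them sequenced in 2 runs: adult WT 620 mTEChi, 357 mTEClo and 77 cTECs, Aire-KO 338 mTEChi and 154 mTEClo, newborn 171 mTEChi, 124 mTEClo and 139 cTECs. GENCODE M21 gave names and positions. Counts were summed by pool (13 pools, 11 of mTECs) and tested on the mTEC pools with edgeR 4.0.16 in R 4.3.3: TMM, the tool's filter on low counts, quasi-likelihood test, 5 residual degrees of freedom, 2-sided. Each SE given was derived as the absolute log2 fold change over the square root of the F statistic of that test. It is therefore approximate where counts are near 0. Alternatives were DESeq2 1.42.0, its size factors, no filter, 26 plates as units, age and sex terms and pools left out in turn. Clustering used scanpy 1.11.5 (Leiden, resolution 1). A cluster took a name from a list when 2 in 3 of its markers were at least 2-fold higher, a share raised after a lower one had been seen. No doublet caller was run on these cells sorted 1 to a well. Genes outside the 8 members were named where they led in likeness (the 3 highest r of 0.3 or more), where they check the sort or the knockout, or where a list gave 5 or fewer calls. Members, lists and rules were chosen with earlier results of these data known. Scripts were tested on simulated data.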

Additional observations from a re-analysis of the deposited data

Results flagged for a closer look

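In the 4 pools of adult WT mTEChi, 24 values (level and 2 shares of cells for each of the 8 mucins) were searched for a pool far from the other 3, relative to the whole range, and 5 were found. Chance flags about 1 in 20 such groups. The 5-week male pool, 12 cells in all, gave 3 of the 5: Muc1 at 100.5 CPM, and Muc4 at 8.33% of cells both at 1 read or more and at 5 reads or more, that is in 1 of 12 cells. The 4-week male pool had Muc1 reads in 98.2% of cells where the other 3 pools had them in 100%. The 6-week male pool had 5 or more Muc6 reads in 10.98% of cells, below the other 3. The part of the number of cells in these values was not tested.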

How the results depend on the processing

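Of 8 members, DESeq2 called 3 lower in Aire-KO mTEChi and plates as units 4, where edgeR on pools called 0. DESeq2 called 1 in Aire-KO mTEClo (main 0). It called 3 for the difference of the Aire-KO effect between sorts, as did plates (main 0). For adult mTEChi against mTEClo, 2 were called higher, 5 by DESeq2, 6 over plates, 1 with age and sex in the model, and 1 to 4 with a pool left out, where 7.54%, 17.9%, 25.8%, 4.5% and 2.79% to 10.3% of all genes were. For newborn against adult mTEClo, 0 were called, 2 by DESeq2, 3 over plates and 0 to 1 with a pool left out, the 1 without the 8-week mTEClo pool. DESeq2's size factors and no filter on low counts moved none of these counts. The log2 fold change of Muc4 changed sign to 0.0947 in Aire-KO mTEChi without the 4-week male WT pool, and to -0.71 for mTEChi against mTEClo with age and sex in the model. The cause of these shifts was not tested. At 5 reads instead of 1, the number of members in 10% of cells or more went from 8 to 5 in adult WT mTEChi, from 8 to 4 in newborn mTEClo and from 8 to 4 in newborn cTECs. Thinning each cell to 200000 reads left 28 of 64 shares of cells within their spread, and leaving out the strongest cell of each pool, an alternative chosen after seeing the data, left 19 of 64 levels within theirs. At Leiden resolution 0.4 the keratinocyte-like cluster grew from 3.54% to 9.49% of all cells and held 69.8% of Muc13 reads (2.68% at resolution 1). That larger cluster also had 7 of 8 enterocyte or hepatocyte markers and 6 of 7 microfold markers higher, so its name covers more than keratinocyte-like cells. Naming clusters at a lower share of markers, also tried after seeing the data, named 1 more cluster (14 against 13) and left the keratinocyte-like cluster as it was. No paired analysis was possible because the replicate numbers of the labels name cells, not mice. Adult WT pools of both sorts share age and sex labels (4- and 5-week males), which the fit with age and sex in the model takes up. Depth limits the low counts: a gene at 1 to 4 reads in a cell is near the level that moved with the plate, and a level carried by a few cells has no error beyond the spread of pools.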
